A study of Mus musculus with 6 samples.

Results

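The genes described here encode the ATP-dependent chromatin remodelers of the mouse and the subunits of SWI/SNF, the complex whose ATPase BRG1 is the product of Smarca4. They were taken from the array by gene name, from a list of 45 symbols and name patterns for the Smarc, Arid1, Bcl7, Dpf and Chd families. The rule found 41 gene names with 98 probes, out of 27962 gene names and 41174 probes on the array. It used no measured value. Of these 41 genes, 40 were tested, because the brightest probe cleared background on all arrays of 1 group or both, and 39 cleared it on all 6 arrays. The neuronal actin-related subunit gene Actl6b was not tested, because its brightest probe cleared background on all arrays in neither group.

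RNA of mouse embryonic stem (ES) cells from a cross of 129 and C57BL/6 was hybridised to 6 single-colour arrays. The groups were 3 arrays of cells given an siRNA against BRG1 and 3 arrays of cells given a scrambled control siRNA, both for 48 h. Both groups therefore share siRNA delivery and the same genetic background, and no array of cells without siRNA was included. Nothing in the labels ties a replicate to a culture of its own, and the p-values therefore rest on the spread among the arrays, part of which may be technical.

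SWI/SNF complexes use the energy of ATP to slide or eject nucleosomes. Each holds 1 ATPase, BRG1 or its relative BRM, on a shared core, and the ARID subunits separate BAF complexes (Arid1a or Arid1b) from PBAF complexes (Arid2, with Pbrm1). ES cells are known for a BAF form built on BRG1, and other remodelers act beside it: ISWI complexes space nucleosomes, CHD proteins include the ATPases of NuRD, and INO80, SRCAP and EP400 complexes move or exchange histones.

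Signals are given as log2 of the processed spot signal minus the array's 75th percentile, so a level says how bright 1 probe was on 1 array, and levels of different probes are not compared. A gene was read from its brightest probe and called at an adjusted p under 0.05 in a limma fit over all 17759 tested genes. All 10 ES cell markers, Pou5f1, Sox2 and Nanog among them, were well above background on all 6 arrays. So were 11 of 12 fibroblast, 8 of 10 neural and 9 of 10 muscle and heart markers, so clearing background does not by itself mark a cell type. Of 11 tested fibroblast markers, 6 were lowered and 2 raised, and their summed linear signal was 9.87 to 10.6 times the array's 75th percentile on BRG1 siRNA arrays, against 14.7 to 16.0 on control arrays, with none of the 12 markers on the array below background throughout. Of 9 tested neural markers 1 was lowered, and of 10 muscle and heart markers 1 was raised and 1 lowered. The summed signal of the neural markers was 13.5 to 13.9 on BRG1 siRNA arrays and 12.9 to 13.7 on control arrays. For muscle and heart markers it was 2.67 to 3.01 and 2.74 to 3.03, and for ES cell markers 471 to 492 and 469 to 475, in the same order. The 2 slides also followed the groups in part: slide 1 held all 3 control arrays and BRG1 siRNA replicate 1, and slide 2 held BRG1 siRNA replicates 2 and 3. The part of the fibroblast markers in the results below was not tested. Slide values stand beside the remodeler and partner genes that were called, while the marker genes are given without them.

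The probes are 60-base oligonucleotides, and a few are shown because the ATPase genes are close relatives and share stretches of sequence. The coordinates are those of mm7, the build named in the file headers, and a span longer than the probe means that it crosses a gap in the genome. In the first Smarca4 probe and the Smarca2 probe the capitals mark a stretch of 22 bases that aligns between both ATPases, with 19 matching and 3 differing bases. The first Smarca4 probe lies at chr9:21520316-21521714 on the plus strand, the second at chr9:21514928-21514987 on the plus strand, and the Smarca2 probe at chr19:26354393-26354452 on the plus strand.
Smarca4 A_51_P331702: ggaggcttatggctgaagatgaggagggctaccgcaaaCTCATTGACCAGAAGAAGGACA
Smarca4 A_52_P147044: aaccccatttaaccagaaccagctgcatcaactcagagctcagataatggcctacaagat
Smarca2 A_51_P504037: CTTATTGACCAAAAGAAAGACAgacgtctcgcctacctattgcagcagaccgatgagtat
This Smarca2 probe cleared background on 0 of 3 BRG1 siRNA arrays and on 2 of 3 control arrays, so it was not tested, and the Smarca2 values below come from another probe, at chr19:26477929-26477988 on the plus strand.

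A search of all 4753 pairs of member probes for aligned stretches of 15 or more bases, at 75% identity or more and with at least 17 matching bases, found this pair and 2 pairs within Smarca5. One Smarca5 pair, both on the minus strand, is shown with its 40-base overlap in capitals, in which 37 bases match and 3 differ, at chr8:79248505-79248564 for the first probe and chr8:79248525-79248584 for the second. The other pair shares 48 identical bases.
Smarca5 A_52_P207203: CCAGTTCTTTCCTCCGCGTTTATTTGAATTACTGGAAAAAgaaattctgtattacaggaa
Smarca5 A_52_P304881: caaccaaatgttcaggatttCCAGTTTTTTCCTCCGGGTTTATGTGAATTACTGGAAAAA
These Smarca5 probes therefore sample nearly the same stretch of RNA and are not independent readings.

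Smarca4, the target of the siRNA, was lower on every BRG1 siRNA array than on every control array. Its brightest probe, A_51_P331702, read 3.76, 3.74 and 3.60 in BRG1 siRNA cells, against 4.32, 4.36 and 4.23 in control cells. The change was -0.60 on the log2 scale (SE 0.06, adjusted p = 0.00365), which left 65.8% of the control signal. The groups do not overlap, and BRG1 siRNA replicate 3 was the lowest array. With the slide as a block, which equals the comparison within slide 1, the change was -0.54 (adjusted p = 0.0425). Slide 1 alone gave the same change with an adjusted p of 0.0724, and scaling on spike-in probes gave -0.40 (adjusted p = 0.0471).

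The other Smarca4 probes fell as well, by unequal amounts. In the fit over all 26262 tested probes, A_52_P147044, the most upstream of the 3, read -2.22, -2.24 and -2.38 in BRG1 siRNA cells, against -1.60, -1.63 and -1.83 in control cells, a change of -0.59 (SE 0.08, adjusted p = 0.00862). A_51_P479733, the most downstream, at chr9:21582352-21582411 on the plus strand, read 3.37, 3.50 and 3.33 in BRG1 siRNA cells, against 4.30, 4.28 and 4.24 in control cells, a change of -0.87 (SE 0.06, adjusted p = 0.00181). It kept 54.7% of the control signal. Within an array, A_51_P331702 minus A_51_P479733 was higher in BRG1 siRNA cells by 0.27, with no overlap between groups. The exact two-sided permutation p was 0.1, the smallest that 3 against 3 arrays allow, and the adjusted p over 15 probe pairs was 0.15. A_51_P331702 minus A_52_P147044 differed by -0.01 (exact permutation p = 0.7). The probe pairs within a gene, here and below, were chosen after their values had been seen. In the probe fit with the slide as a block, A_51_P479733 had an adjusted p of 0.0290, A_51_P331702 of 0.0506 and A_52_P147044 of 0.0785.

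Smarca2, which encodes BRM, the alternative ATPase of the complex, was also lower on every BRG1 siRNA array. It read -5.08, -5.37 and -5.24 in BRG1 siRNA cells, against -4.50, -4.56 and -4.45 in control cells. The change was -0.73 (SE 0.08, adjusted p = 0.00432). This is a dim probe: it was well above background on all 3 control arrays but on 2 of 3 BRG1 siRNA arrays, and replicate 2, the lowest, was not above it. Smarca2 thus entered the test only through the control group, where it was higher, and a filter on all 6 arrays leaves it untested. Its change was -0.57 with the slide as a block (adjusted p = 0.0357). Another background correction (normexp) gave -0.32 (adjusted p = 0.00894), and quantile normalization gave -0.56 and ended the call (adjusted p = 0.11). The size of its fall is therefore uncertain, and so is the difference of 0.12 between groups in Smarca4 minus Smarca2 within each array, for which the groups overlap.

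**Figure D1:**
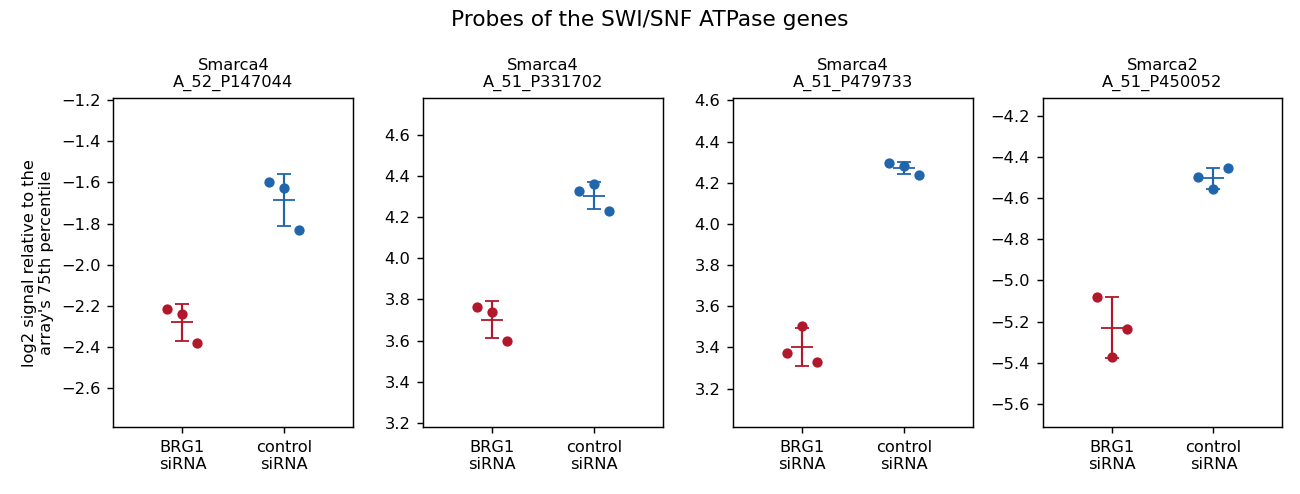
Log2 signal, relative to the array's 75th percentile, of the 3 Smarca4 probes in genome order and of the tested Smarca2 probe on each array, with BRG1 siRNA (red) left of control siRNA (blue). Points are arrays and bars are the mean and SD of 3 arrays. Each panel spans the same range of log2 units around its own probe, and in all 4 panels every BRG1 siRNA array lies below every control array. The lowest Smarca2 array, BRG1 siRNA replicate 2, was not well above background.

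Of the 40 tested remodeler genes, 13 were called, 6 raised and 7 lowered, or 32.5%, beside 23.3% of all tested genes. Raised calls made up 9.87% and lowered calls 13.4% of all tested genes. Raised were Arid1a, Bcl7a, Smarca3, Chd9, Smarcad1 and Dpf2, and lowered were Smarca2, Smarca4, Chd1, Chd6, Brd7, Arid1b and Smarcd3. The groups of arrays did not overlap for 23 of 40 members, or 57.5%, beside 44.0% of all tested genes. The median change was 0.02 over the members and -0.04 over all genes, and the median absolute change was 0.15 in each. Smarca4 passed 1.5-fold, as did 6.00% of all tested genes. The dim Smarca2 probe read past 1.5-fold too, but not with normexp background correction, and no member reached 2-fold. Without Smarca2, whose low group was not above background throughout, 12 of 39 members were called. These 12 still include Smarca4, the target of the siRNA, which was meant to fall.

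The count of 13 changed with the slide block, with single arrays and with the scaling. With the slide as a block, 4 of the 13 were called, Smarca4, Smarca2, Arid1a and Arid1b, beside 7.84% of all tested genes, and all 13 kept their sign. Slide 1 alone, with 1 BRG1 siRNA array, called 0 members by limma, beside 0.319% of all genes, while 16 of 40 members had an unadjusted p under 0.05, beside 30.02% of all genes. There the slide cannot be told apart from having a single BRG1 siRNA array. The count was 5 without BRG1 siRNA replicate 1 (12.8% of all genes), 5 without BRG1 siRNA replicate 2 (11.0%) and 11 without BRG1 siRNA replicate 3 (24.8%). It was 6 without control replicate 1 (14.4% of all genes), 4 without control replicate 2 (10.3%) and 4 without control replicate 3 (9.19%). Smarca4, Arid1a and Chd6 were called whichever array was left out. So was Smarca2, but a dim probe reads it, and quantile normalization ended its call. In the fit on all arrays and in the slide block it entered only through the control group, where it was higher. The split of 6 raised and 7 lowered was 13 and 4 with spike-in scaling, beside 23.4% of all genes called, and 2 and 4 with median scaling, beside 9.76%. It was 8 and 6 with quantile normalization, beside 23.9%, and 10 and 6 with normexp and quantile normalization, beside 26.1%. Spike-in scaling ended the calls of Arid1b, Brd7 and Smarcd3, and median scaling ended these and those of Chd9, Dpf2, Smarca3 and Smarcad1.

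**Figure D2:**
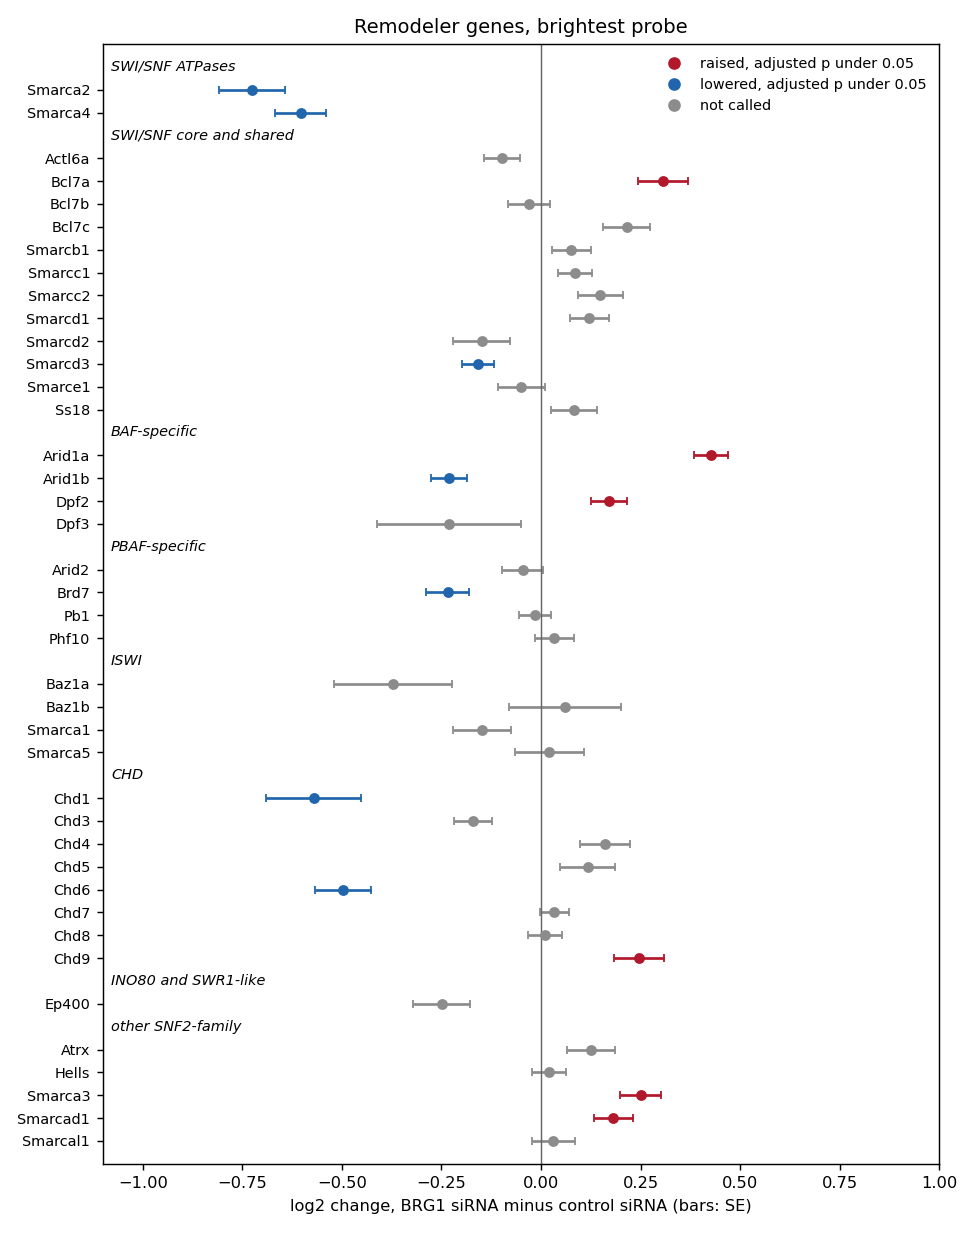
Log2 change, BRG1 siRNA minus control siRNA, of the 40 tested remodeler genes, each from its brightest probe, with bars for the SE of the limma fit, arranged by role from the SWI/SNF ATPases at the top. Red genes were raised, blue genes lowered and grey genes not called. Both ATPases lie at the far left and Arid1a, at 0.43, at the far right.

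Among the 12 tested core and shared SWI/SNF subunits, 1 was raised, 1 lowered and 10 not called. Bcl7a, a small subunit, read 0.78, 0.73 and 0.91 in BRG1 siRNA cells, against 0.56, 0.47 and 0.47 in control cells, and rose by 0.31 (SE 0.06, adjusted p = 0.0233). All BRG1 siRNA arrays lay above all control arrays, with replicate 3 the highest. Smarcd3, 1 of 3 alternative subunits at the same position of the complex, read -0.73, -0.68 and -0.68 in BRG1 siRNA cells, against -0.57, -0.52 and -0.52 in control cells. It fell by 0.16 (SE 0.04, adjusted p = 0.0393) without overlap, but read 0.05 higher with spike-in scaling (adjusted p = 0.716). Under the slide block, Bcl7a changed by 0.28 (adjusted p = 0.14) and Smarcd3 by -0.19 (adjusted p = 0.101).

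The core members not called ranged from -0.15 to 0.22. Bcl7c, a relative of Bcl7a, had 2.24, 2.33 and 2.39 in BRG1 siRNA cells, against 2.14, 2.03 and 2.15 in control cells, a change of 0.22 (adjusted p = 0.0503). Its groups do not overlap, and its probes at other positions were called in the probe fit, as given below. Smarcd2, an alternative to Smarcd3, had 2.20, 2.29 and 2.05 in BRG1 siRNA cells, against 2.30, 2.39 and 2.30 in control cells. Smarcc2, a scaffold subunit, had -1.78, -1.95 and -1.86 in BRG1 siRNA cells, against -1.98, -2.02 and -2.03 in control cells. Neither Smarcd2 (-0.15) nor Smarcc2 (0.15) overlapped between groups, and neither passed the test. The rest were Smarcd1 at 0.12, the actin-related subunit gene Actl6a at -0.10, the scaffold gene Smarcc1 at 0.09, Ss18 at 0.08, the core gene Smarcb1 at 0.08, the HMG-box subunit gene Smarce1 at -0.05 and Bcl7b at -0.03.

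Both ARID subunit genes of BAF were called, in opposite directions, but the fall of Arid1b rested on the scaling. Arid1a read 4.60, 4.52 and 4.55 in BRG1 siRNA cells, against 4.13, 4.16 and 4.10 in control cells. It rose by 0.43 (SE 0.04, adjusted p = 0.00300), to 134% of control, the highest change among the members. Arid1b, whose product takes the same place in the complex, read 0.93, 1.02 and 1.03 in BRG1 siRNA cells, against 1.24, 1.21 and 1.22 in control cells, and fell by 0.23 (SE 0.05, adjusted p = 0.0193). Both sets of arrays are far apart relative to their spread, with SDs of 0.04 for Arid1a and 0.06 for Arid1b in BRG1 siRNA cells and of 0.03 and 0.02 in control cells. With the slide as a block, Arid1a changed by 0.47 (adjusted p = 0.0301) and Arid1b by -0.30 (adjusted p = 0.046). Arid1b read -0.03 with spike-in scaling (adjusted p = 0.83) and -0.18 with median scaling (adjusted p = 0.283), and Arid1a stayed called under both (0.63 and 0.48). Arid1a was read by 1 probe, and both Arid1b probes were lowered, the second by 0.30 (SE 0.07, adjusted p over probes = 0.0311).

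The other BAF-specific genes encode PHD-finger proteins. Dpf2 read 3.21, 3.18 and 3.20 in BRG1 siRNA cells, against 2.97, 3.07 and 3.04 in control cells, and rose by 0.17 (SE 0.04, adjusted p = 0.0433). Its groups do not overlap, and the value with the slide as a block was 0.19 (adjusted p = 0.148). Dpf3, a dim probe, had -4.61, -4.60 and -4.37 in BRG1 siRNA cells, against -3.93, -4.61 and -4.35 in control cells. Its groups overlap (adjusted p = 0.404).

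Of the 4 PBAF genes, 1 was lowered. Brd7, which encodes a bromodomain protein, read 4.51, 4.60 and 4.68 in BRG1 siRNA cells, against 4.83, 4.86 and 4.81 in control cells, a fall of 0.23 (SE 0.05, adjusted p = 0.032). It was the call most easily lost among the 13, under 15 of the alternatives run, and with the slide as a block it changed by -0.32 (adjusted p = 0.0542). With spike-in scaling Brd7 read -0.03 (adjusted p = 0.81). Its other probe, A_51_P157554, changed by -0.07, with overlap between groups (adjusted p over probes = 0.411). The mean of both Brd7 probes was not called. Arid2, the ARID subunit of PBAF, had 3.52, 3.47 and 3.61 in BRG1 siRNA cells, against 3.56, 3.56 and 3.62 in control cells. Phf10, a PHD-finger subunit gene, had 4.95, 5.01 and 5.08 in BRG1 siRNA cells, against 4.998, 4.95 and 4.99 in control cells. Pbrm1, named Pb1 on the array, encodes the subunit with several bromodomains and had 2.20, 2.14 and 2.20 in BRG1 siRNA cells, against 2.20, 2.17 and 2.21 in control cells. In these 3 genes the groups overlap, and the changes were -0.05, 0.03 and -0.02.

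**Figure D3:**
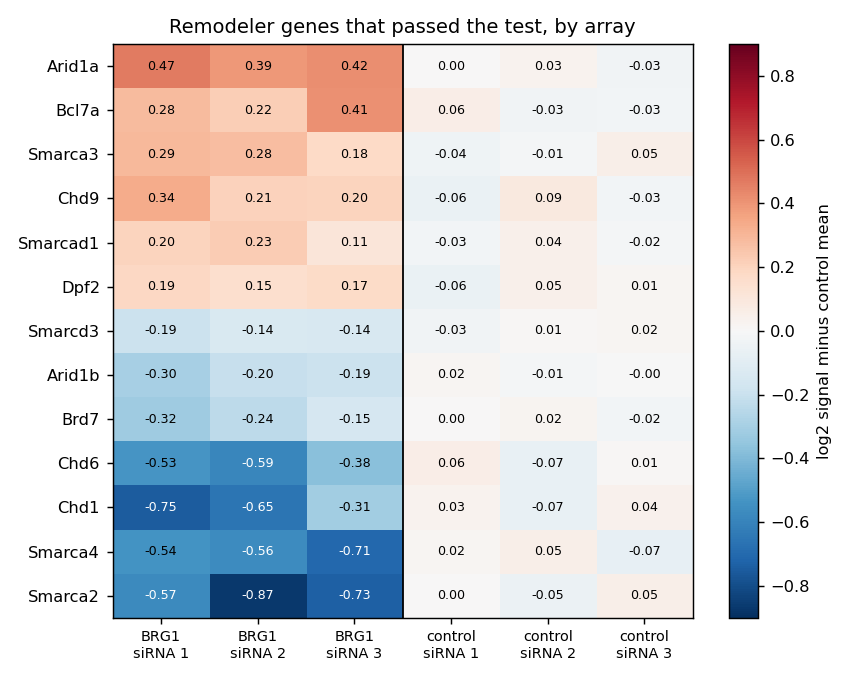
Log2 signal of the 13 called remodeler genes on each array, as the difference from the mean of the 3 control arrays. BRG1 siRNA arrays are the 3 columns on the left and control arrays the 3 on the right, and genes run from the highest to the lowest change. Arid1a was 0.39 to 0.47 above and Chd1 0.31 to 0.75 below the control mean on BRG1 siRNA arrays.

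In SWI/SNF together, 3 of 22 tested genes were raised and 5 lowered. Without Smarca4, the siRNA target, 3 of 21 were raised and 4 lowered, with the dim Smarca2 probe among the lowered. In the other remodelers 3 of 18 were raised and 2 lowered. Among all tested genes, 9.87% were raised and 13.4% lowered. None of the 4 tested ISWI genes was called by limma, and 1, Baz1a, had an unadjusted p under 0.05, as did 37.9% of all tested genes. Smarca5 encodes SNF2H, the ISWI ATPase of most cell types, and its 4 probes changed by -0.14 to 0.05 with none called. Smarca1, which encodes the related ATPase SNF2L, had 0.77, 0.82 and 0.98 in BRG1 siRNA cells, against 1.02, 0.92 and 1.07 in control cells (change -0.15, adjusted p = 0.201). Baz1b, which encodes a partner of SNF2H, had 0.13, 0.19 and -0.20 in BRG1 siRNA cells, against -0.07, 0.19 and -0.18 in control cells (change 0.06). In both genes the groups overlap.

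Baz1a, which encodes ACF1, another partner of SNF2H, differed by probe. Its brightest probe had 2.21, 2.27 and 2.09 in BRG1 siRNA cells, against 2.23, 2.73 and 2.72 in control cells, a change of -0.37 that was not called (SE 0.15, adjusted p = 0.13). Control replicate 1 lay with the BRG1 siRNA arrays. Both other probes were lowered without overlap in the fit over probes, where 19.6% of all tested probes were called. A_51_P374651 read 0.03, -0.09 and -0.14 in BRG1 siRNA cells, against 0.22, 0.33 and 0.28 in control cells (change -0.34, adjusted p = 0.0168). A_52_P1061446 read -0.56, -0.47 and -0.69 in BRG1 siRNA cells, against -0.15, -0.06 and -0.12 in control cells (change -0.46, adjusted p = 0.0106). Neither was called under the slide block (adjusted p = 0.11 and 0.0825).

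Of the 8 CHD genes, 1 was raised and 2 lowered. Chd1 encodes a remodeler that binds methylated lysine 4 of histone H3 and is known to be needed for the open chromatin of mouse ES cells. Its brightest probe read 0.43, 0.52 and 0.86 in BRG1 siRNA cells, against 1.21, 1.10 and 1.21 in control cells. It fell by 0.57 (SE 0.12, adjusted p = 0.0238), with BRG1 siRNA replicate 3 nearest to the controls and no overlap. The slide block gave -0.75 (adjusted p = 0.0539), and spike-in scaling -0.36 (adjusted p = 0.0308).

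The fall of Chd1 was read by the brightest probe alone, which is annotated to a cDNA record. The other Chd1 probes, both annotated to the RefSeq mRNA of the gene, did not move with it. They are printed because the reading of Chd1 turns on which probe is used. The first lies at chr17:13962180-13962239 and the second at chr17:14001754-14003122, both on the plus strand and upstream of the brightest probe, at chr17:14009226-14009285.
Chd1 A_52_P547965: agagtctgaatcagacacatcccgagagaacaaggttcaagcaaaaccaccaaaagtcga
Chd1 A_52_P329250: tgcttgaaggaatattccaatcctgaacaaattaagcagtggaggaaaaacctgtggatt
A_52_P547965 had 0.77, 0.88 and 0.70 in BRG1 siRNA cells, against 0.73, 0.75 and 0.73 in control cells, a change of 0.05 (SE 0.06, adjusted p over probes = 0.596). A_52_P329250 had -1.39, -1.51 and -1.46 in BRG1 siRNA cells, against -1.41, -1.51 and -1.43 in control cells, a change of 0.00 (SE 0.05, adjusted p over probes = 0.994). Both overlap between groups. Within each array, the brightest probe minus A_52_P547965 differed by -0.62 and the brightest probe minus A_52_P329250 by -0.57, each without overlap (exact permutation p = 0.1, adjusted p = 0.15 over 15 probe pairs). These probe pairs were chosen after their values had been seen.

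Chd6, a remodeler of the subfamily that also holds Chd7, Chd8 and Chd9, read -1.39, -1.45 and -1.24 in BRG1 siRNA cells, against -0.81, -0.93 and -0.85 in control cells. It fell by 0.50 (SE 0.07, adjusted p = 0.0074), with no overlap, by 0.53 with the slide as a block (adjusted p = 0.0556) and by 0.29 with spike-in scaling (adjusted p = 0.0369). Its 6 probes changed by -0.50 to 0.03. Besides the brightest, A_52_P308507 was called, with -2.15, -2.23 and -2.06 in BRG1 siRNA cells, against -1.81, -1.83 and -1.79 in control cells (change -0.33, adjusted p over probes = 0.014). The brightest probe minus A_51_P367366, the probe at 0.03, differed by -0.53 within arrays, without overlap (exact permutation p = 0.1, adjusted p = 0.15).

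Chd9 read 0.90, 0.77 and 0.76 in BRG1 siRNA cells, against 0.50, 0.65 and 0.54 in control cells, and rose by 0.25 (SE 0.06, adjusted p = 0.0411). All BRG1 siRNA arrays lay above the controls, and the value with the slide as a block was 0.34 (adjusted p = 0.0681). Its 4 other tested probes were higher too, by 0.09 to 0.24, and none of them was called.

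The NuRD ATPase genes Chd3, Chd4 and Chd5 were not called. Chd3 had -0.22, -0.10 and -0.20 in BRG1 siRNA cells, against -0.02, 0.00 and 0.01 in control cells (change -0.17, adjusted p = 0.0531). Chd4, whose product is the main NuRD ATPase of ES cells, had 2.94, 2.82 and 2.82 in BRG1 siRNA cells, against 2.80, 2.64 and 2.66 in control cells (change 0.16, adjusted p = 0.126). Neither overlaps between groups. The brightest Chd5 probe had -1.98, -1.79 and -1.75 in BRG1 siRNA cells, against -1.95, -1.98 and -1.94 in control cells, and its groups overlap. Another Chd5 probe, A_51_P275174, was raised over probes, with -2.31, -2.13 and -2.21 in BRG1 siRNA cells, against -2.47, -2.83 and -2.64 in control cells (change 0.43, adjusted p = 0.0378). Chd7, mutated in CHARGE syndrome in people, changed by 0.03 and Chd8 by 0.01.

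Ep400, the ATPase gene of the complex that holds the acetyltransferase TIP60, was not called on its brightest probe, which had 1.51, 1.52 and 1.71 in BRG1 siRNA cells, against 1.90, 1.78 and 1.81 in control cells (change -0.25, adjusted p = 0.0567). The groups do not overlap. A_51_P380165, which lies at lower coordinates on the minus-strand gene and so further downstream, was raised over probes, with 1.57, 1.61 and 1.56 in BRG1 siRNA cells, against 1.38, 1.44 and 1.42 in control cells (change 0.16, adjusted p = 0.0448). Within arrays these probes differed by -0.41, without overlap (exact permutation p = 0.1, adjusted p = 0.15).

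Of the 5 other SNF2-family genes, 2 were raised. Smarca3, now named Hltf, encodes a ubiquitin ligase with a SNF2 domain that acts at replication forks. It read 2.75, 2.73 and 2.63 in BRG1 siRNA cells, against 2.42, 2.44 and 2.505 in control cells, and rose by 0.25 (SE 0.05, adjusted p = 0.0221). Both other probes of Smarca3 were raised too, by 0.34 (adjusted p over probes = 0.00882) and 0.31 (adjusted p over probes = 0.0123), and no array of either group crossed into the other on any of the 3. The brightest probe gave 0.29 under the slide block (adjusted p = 0.0752).
Smarcad1 encodes a remodeler that acts on chromatin behind the replication fork. It read 3.17, 3.20 and 3.08 in BRG1 siRNA cells, against 2.94, 3.01 and 2.95 in control cells, and rose by 0.18 (SE 0.05, adjusted p = 0.0487). Its second probe, A_52_P45551, rose by 0.24 (SE 0.05, adjusted p over probes = 0.0338). In the fit over probes the brightest Smarcad1 probe missed the threshold (adjusted p = 0.0579), as did its value of 0.20 with the slide as a block (adjusted p = 0.153).

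The sequences of the second Smarca3 probe, at chr3:19838503-19840031, and the second Smarcad1 probe, at chr6:65096452-65096511, both on the plus strand, are given because each lies apart from the brightest probe of its gene and changed the same way.
Smarca3 A_52_P114810: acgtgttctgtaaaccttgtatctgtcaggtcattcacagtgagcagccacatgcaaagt
Smarcad1 A_52_P45551: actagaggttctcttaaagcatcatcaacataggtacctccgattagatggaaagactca

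The remaining SNF2-family genes were not called. Atrx, whose product works with DAXX to place histone H3.3, had -2.01, -2.10 and -1.98 in BRG1 siRNA cells, against -2.09, -2.25 and -2.14 in control cells (change 0.13). Smarcal1, which encodes an annealing helicase, had 1.62, 1.72 and 1.66 in BRG1 siRNA cells, against 1.56, 1.69 and 1.66 in control cells (change 0.03). Hells, whose product is needed for normal DNA methylation in the mouse, had 3.56, 3.49 and 3.58 in BRG1 siRNA cells, against 3.51, 3.51 and 3.55 in control cells (change 0.02). All 3 overlap between groups.

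Over all member probes, 12 of 88 tested were raised and 13 lowered, or 28.4%, beside 19.6% of all tested probes, of which 8.60% were raised and 11.0% lowered. Under the slide block, 5 member probes were called, beside 4.70% of all tested probes. They were A_51_P479733 of Smarca4, A_52_P114810 of Smarca3, the second probe of Smarcc1, and the brightest probes of Smarca2 and Arid1a. The other probe calls, those of second probes in Arid1b, Chd5, Chd6, Ep400 and Smarcad1 among them, were lost with the block. Of the 26 members with several tested probes, 15 had probes of 1 sign and 11 of both signs, and no member had probes called in opposite directions. Of the 13 called genes, 5 had a single tested probe and 8 had several, and in 5 of those 8 a probe other than the brightest was called the same way: Smarca4, Arid1b, Chd6, Smarca3 and Smarcad1. A further 5 genes, Baz1a, Bcl7c, Chd5, Smarcc1 and Ep400, were not called but had another probe that was, and in Ep400 its sign was opposite to that of the brightest. In Bcl7c 2 of 4 probes were raised, by 0.19 (adjusted p = 0.0399) and 0.31 (adjusted p = 0.0129). Neither was called with the slide as a block (adjusted p = 0.13 and 0.0974). In Smarcc1 the second probe read -0.28, -0.51 and -0.47 in BRG1 siRNA cells, against -0.80, -0.72 and -0.78 in control cells, and rose by 0.35 (adjusted p = 0.0246, and 0.0378 with the slide as a block).

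**Figure D4:**
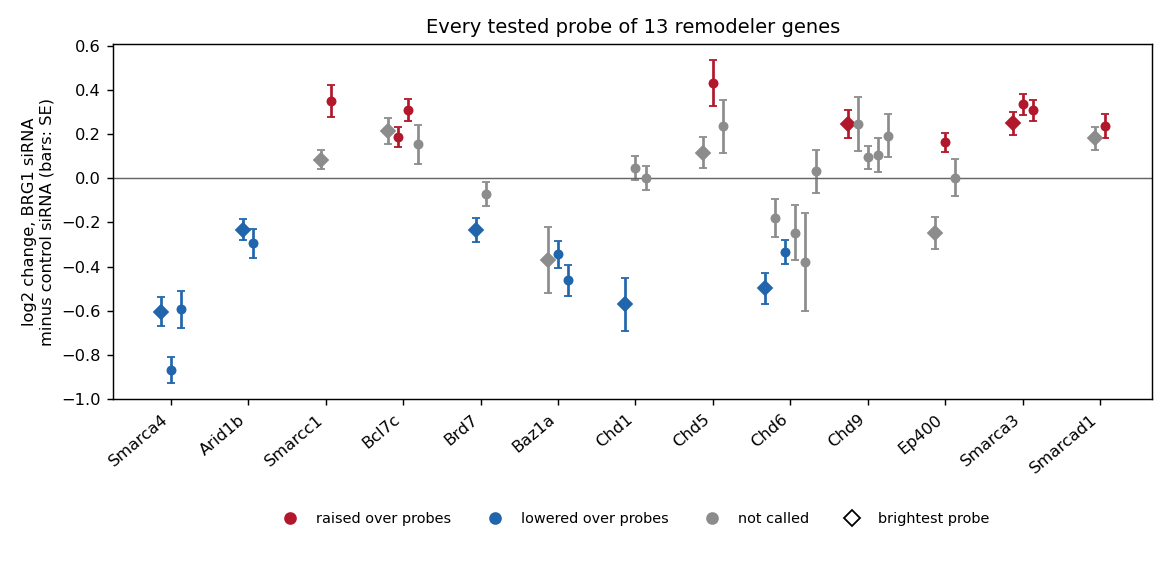
Log2 change, BRG1 siRNA minus control siRNA, of every tested probe of 13 remodeler genes with several probes, with bars for the SE; diamonds are the brightest probe of a gene. Red probes were raised and blue probes lowered in the fit over all probes, and grey probes were not called. The 3 Smarca4 probes all lie below 0 and the 3 Smarca3 probes all above it, while in Chd1 the brightest probe lies at -0.57 and both others at 0.05 and 0.00.

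Paralogous subunits were compared within each array, which removes any scaling between arrays, for 8 pairs of related genes. In 5 pairs the groups did not overlap, each with an exact two-sided permutation p of 0.1, the smallest possible, and an adjusted p of 0.16, so none passed. No share was computed for other gene pairs, and among all tested single genes 44.0% did not overlap. Each gene was read from its brightest probe. Arid1a minus Arid1b was 3.67, 3.50 and 3.52 in BRG1 siRNA cells, against 2.89, 2.95 and 2.88 in control cells, a difference of 0.66. Chd4 minus Chd3 was 3.16, 2.92 and 3.02 in BRG1 siRNA cells, against 2.82, 2.64 and 2.64 in control cells, a difference of 0.33. Both moved toward the first gene of the pair on every BRG1 siRNA array. The other tested probes of Chd4 changed by 0.05 and 0.17 and those of Chd3 by 0.01 and -0.37. The size of the Chd4 minus Chd3 difference therefore depends on the probes taken. Bcl7a minus Bcl7b differed by 0.34, Smarcd1 minus Smarcd2 by 0.27 and Baz1a minus Baz1b by -0.43. Smarca5 minus Smarca1 (0.17) and Smarcc1 minus Smarcc2 (-0.06) overlapped between groups, each with an exact permutation p of 0.4.

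**Figure D5:**
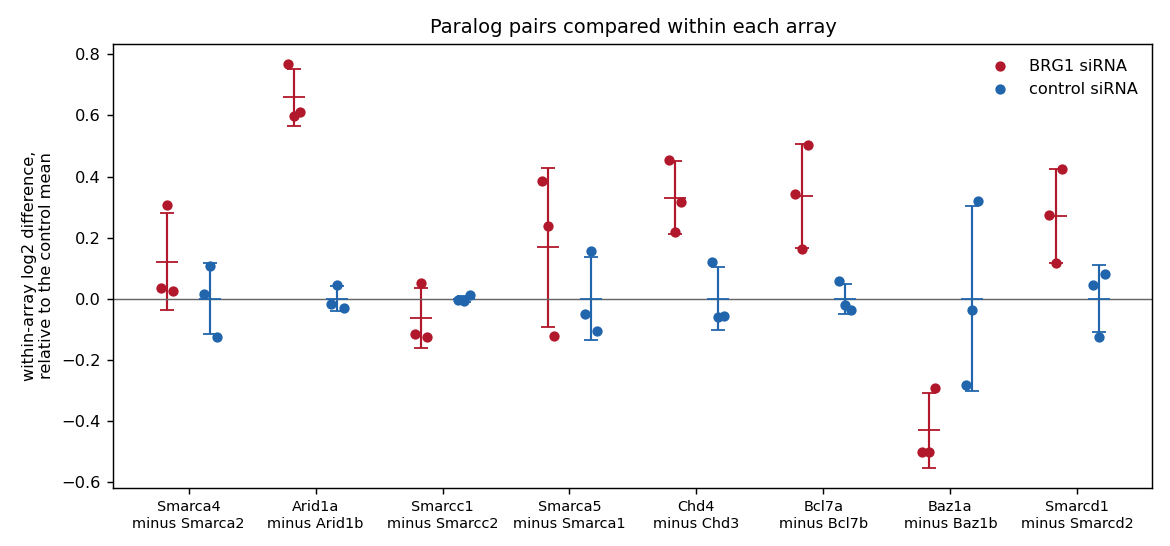
Log2 signal of the first gene minus that of the second on the same array, for 8 paralog pairs, set relative to the mean of the 3 control arrays. BRG1 siRNA (red) stands left of control siRNA (blue), and bars are the mean and SD of 3 arrays. The groups are farthest apart for Arid1a minus Arid1b, at 0.66.

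Partner subunits and SNF2-family genes outside the name rule were read as a list of their own. Of 59 listed, 57 were on the array and 56 were tested, with 6 raised and 3 lowered, or 16.1%, beside 23.3% of all genes. Their median change was 0.04. Vps72, which encodes the subunit that binds the histone variant H2A.Z in the SRCAP and TIP60 complexes, had -1.49, -1.45 and -1.26 in BRG1 siRNA cells, against -2.01, -1.96 and -2.08 in control cells. It rose by 0.62 (SE 0.08, adjusted p = 0.00499), without overlap, and by 0.53 with the slide as a block (adjusted p = 0.0504). The NuRD subunit gene Mta3 rose by 0.23 (adjusted p = 0.0267), the INO80 subunit gene Actr5 by 0.23 (adjusted p = 0.0236), and the recombination ATPase genes Rad54b and Rad54l by 0.22 (adjusted p = 0.0203) and 0.17 (adjusted p = 0.0413). The sixth raised gene was the NuRD subunit gene Gatad2a. The slide block ended all 6 of these calls, with 0.23 for Mta3 (adjusted p = 0.14), 0.16 for Actr5 (0.149), 0.23 for Rad54b (0.103), 0.15 for Rad54l (0.199) and 0.13 for Gatad2a (0.211). Chrac1, which encodes a histone-fold partner of ACF1 and SNF2H, fell by 0.30 (SE 0.04, adjusted p = 0.0065), and by 0.35 with the slide as a block (adjusted p = 0.0381). Kat5, which encodes TIP60, fell by 0.23 (adjusted p = 0.0398) and by 0.34 with that block (adjusted p = 0.0408). The transcription termination gene Ttf2 fell by 0.15 (adjusted p = 0.04), and its value of -0.19 with the block was not called (adjusted p = 0.0944). All 3 lost their calls with spike-in and with median scaling, and the spike-in values were -0.10 for Chrac1, -0.02 for Kat5 and 0.05 for Ttf2.

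The array carries 6 further listed genes under older names that the rule does not take, found through RefSeq accessions and synonyms. Of these, Bptf, the largest subunit of the NURF complex and named Falz on the array, read 4.58, 4.61 and 4.67 in BRG1 siRNA cells, against 4.36, 4.35 and 4.39 in control cells. It rose by 0.25 (SE 0.04, adjusted p = 0.0126), without overlap between groups, and was not called with the slide as a block (0.21, adjusted p = 0.0945) or with median scaling (0.30, adjusted p = 0.0883). Ino80, Srcap, Brd9, Dpf1 and the tested name of Chd2 changed by -0.18 to 0.13 and none was called. With these 6 genes the count of called genes was 14.

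A sequence feature that the rule did not use is the density of CG dinucleotides at the start sites. RefSeq (GRCm38.p6) promoter windows, 250 bases before to 50 after the start, were matched for 33 of the 41 members, taking the most upstream window of a gene. The letters CG, which read the same on both strands, occurred 4 to 62 times per window in the members, with a median of 27. The median of all 32851 windows was 7, and 26.5% of all windows had at least 20, as did 25 of the 33 members. The full set of windows was not limited to genes detected on the array. The windows of 5 raised members held 19 to 22, those of 6 lowered members 20 to 42 and those of 21 members not called 4 to 62, so that the groups of genes overlap. The narrow range of the raised members rests on the most upstream window alone. Second windows held 36 in Arid1a, 1 in Chd9, 18 in Smarca3 and 25 in Smarcad1, all raised. In members not called they held 29 in Chd4 and 33 in Chd5. The counts describe the windows and say nothing of the factors that bind there.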

How the data were processed

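Total RNA of 6 ES cell samples, 500 ng each, was labelled with Cy3 and hybridised to 1 array per sample, per the labels' protocols. The deposited files hold linear spot intensity from Agilent Feature Extraction (9.5.3.1 per the file headers, 9.5 per the submitters' processing notes), from which the authors' software had subtracted background and trends inside each array, with no scaling between arrays. The deposited value table was identical to the processed signal.

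From these intensities, log2(processed signal) minus the array's 75th percentile of 43379 non-control spots was computed. Outlier spots were left out and spots of a probe averaged. A gene is its brightest probe, tested if well above background on all arrays of at least 1 group. limma 3.58.1 (lmFit, eBayes, R 4.3.3) gave two-sided p-values, Benjamini-Hochberg adjusted over all tested genes, or over all tested probes in a second fit. The fit was tested on simulated data with independent arrays, no slide effect and changes larger than that of any member here. That test therefore does not bear on calls of the size reported. Probes well above background made up 60.9% to 75.3% of an array, and precision is set by having only 3 arrays a group. The members, lists and pairs were chosen with earlier results of these data known. Every member is named, called members and up to 3 others per role with all values, and up to 5 called partner genes per direction. Alternatives covered background correction, scaling, the filter on dim probes, slide, replicate number, probe choice, variance model and each array left out.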

Additional observations from a re-analysis of the deposited data

How the results depend on the processing

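The fit as reported called 13 member genes, 25 member probes, 9 partner genes and 4139 of all tested genes. In that order, the counts were 6, 10, 1 and 1734 with median scaling, 4, 8, 2 and 1740 with no filter on dim probes (more genes tested), 4, 5, 2 and 1392 with the slide as a fixed block, 0, 0, 0 and 59 on slide 1 alone (fewer arrays), and 21, 45, 31 and 8216 with array weights. With the replicate number as a block they were 4, 10, 2 and 1938. Correlations of same-numbered deviations were -0.31, 0.11 and -0.02, and those of differently numbered arrays ran from -0.34 to 0.34. The same numbers thus gave no sign of pairing. Deviations from a mean of 3 arrays are tied to each other, so these correlations cannot exclude a batch shared by number. Partner genes called were also 16 with normexp and quantile normalization, 16 with spike-in scaling and 19 with a trended, robust variance. Leaving out 1 array gave 4 to 11 member genes, 5 to 24 member probes, 2 to 12 partner genes and 1641 to 4413 of all genes. Smarca4 changed by -0.54 on slide 1 alone (adjusted p = 0.0724). Smarcd3 turned to 0.0483 with spike-in scaling (adjusted p = 0.716), where the median change of all genes was 0.17, against -0.04. The causes were not tested. Leaving out called genes with a tested probe of the opposite sign, chosen after seeing the data, left 11 of 13. Dim probes such as Smarca2 and Dpf3 limit what can be read near background.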

Other observations

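Some ES cell regulators measured for the marker check changed beside the remodelers. Nanog, a pluripotency factor, rose by 0.41 (SE 0.07, adjusted p = 0.0138), Klf4, a reprogramming factor, by 0.34 (SE 0.07, adjusted p = 0.018), and Utf1, a chromatin-associated factor of ES cells, by 0.43 (SE 0.10, adjusted p = 0.0298). Pou5f1, which encodes OCT4, fell by 0.33 (SE 0.06, adjusted p = 0.0206). The other 6 ES cell markers were not called, and 23.3% of all tested genes were. These changes are given without the slide block, under which 7.84% of all tested genes were called.

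The fibroblast markers moved in both directions. S100a4 fell by 1.09 (SE 0.06, adjusted p = 0.00103), Thy1 by 0.79 (SE 0.07, adjusted p = 0.00246) and Col3a1 by 0.73 (SE 0.09, adjusted p = 0.00456), while Mgp rose by 1.17 (SE 0.12, adjusted p = 0.0034) and Lox by 0.75 (SE 0.07, adjusted p = 0.00276). Whether these genes reflect other cells in the cultures or the ES cells themselves was not tested. Their values, too, are given without the slide block.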
